A study of Homo sapiens with 4 samples.

Results

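The loops described here are the long cohesin loops of GM12878 cells, those whose anchors lie 250 to 500 kb apart. GM12878 is an established B lymphoblastoid cell line, made by transforming human B cells with Epstein-Barr virus. Contacts held by SMC1, a core subunit of cohesin, were mapped by HiChIP, which joins DNA ends that lie close together in the nucleus and then pulls down the joined fragments with an antibody. The APH cells had been given 0.4 µM aphidicolin, an inhibitor of replicative DNA polymerases, for 18 h, and their control was the solvent DMSO. The HU cells had been given 0.2 mM hydroxyurea, an inhibitor of ribonucleotide reductase, for 18 h, and their control was water (H2O). GM12878 is the line given by the labels' source, cell line and library name, although the titles carry the name of a different lymphoblastoid line. Each of the 4 groups had 1 library, so there was no replicate check, and every comparison below is one between libraries rather than between conditions.

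A loop was a pair of 5 kb bins called in at least 1 library, matched between libraries by chromosome and by the starts of both bins. A loop was a member when the start-to-start distance of its bins was at least 250 kb and less than 500 kb, a rule that uses no measured count. Of 41846 loops on chromosomes 1 to 22 and X, 4395 were members, 21904 were shorter than 100 kb, 14565 spanned 100 to 250 kb and 982 spanned 500 kb or more. Members in adjacent bins are not independent places: merging members whose bins at both ends were the same or adjacent left 3055 places.

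Cohesin is a ring-shaped complex that draws DNA into growing loops and releases it again. Loop growth is commonly halted where CTCF is bound, above all where the CTCF motifs at both ends point towards the inside of the loop. Long loops often join the borders of domains, while shorter ones lie inside them and join promoters, enhancers and gene bodies.

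The direction of CTCF-like motifs could be read where a member's anchor held a RefSeq promoter window, which runs from 250 bases before to 50 bases after a gene's start. The CTCF-like motif searched reads CCA, any 2 bases, AG, any 2 bases and GGC, on either strand. They were present in 558 of 22132 protein-coding promoter windows (2.52%), and in 21 of the 607 windows at anchors of members (3.46%, exact 95% interval 2.15 to 5.24). Windows at anchors of any listed loop had a share close to that of members, with 206 of 6036 (3.41%). At 18 distinct motif places within anchors of members, 17 pointed into the loop (94.4%, 72.7 to 99.9). At the left anchors 9 pointed right and 1 pointed left, and at the right anchors all 8 pointed left. Among loops under 100 kb, 84 of 132 pointed inwards (63.6%, 54.8 to 71.8), and among loops of 100 to 250 kb 57 of 80 did (71.3%, 60.0 to 80.8). Among loops of 500 kb or more, 4 of 4 pointed inwards (100%, 39.8 to 100). For members listed in all 4 libraries it was 4 of 5 (80%, 28.4 to 99.5). For the other members it was 14 of 14 (100%, 76.8 to 100), and a place can belong to both sets. Nearly all motif letters in promoters at the ends of members thus faced the other end, mostly at members not listed in all libraries. The interval of the members lay above that of the loops under 100 kb. It overlapped those of the loops of 100 to 250 kb and of 500 kb or more. Only promoter windows were searched, so most anchors could not be read, and a match of letters is not a measured CTCF site.

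Of these places, 6 are printed to show the motif in its surroundings, in RefSeq sequence of GRCh38.p14, read 5′ to 3′ on the gene's strand and upstream of the gene's start, with the 12 motif letters in capitals.
STEAP1, plus strand, chr7:90154349-90154440: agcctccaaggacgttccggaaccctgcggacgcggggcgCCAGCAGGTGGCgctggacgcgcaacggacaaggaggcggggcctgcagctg
MC5R, plus strand, chr18:13824019-13824110: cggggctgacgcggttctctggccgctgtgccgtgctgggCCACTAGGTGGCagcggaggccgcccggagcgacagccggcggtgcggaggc
CEBPB, plus strand, chr20:50190406-50190497: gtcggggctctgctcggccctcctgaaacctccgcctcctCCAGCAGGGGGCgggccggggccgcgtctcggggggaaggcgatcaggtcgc
ANTXR1, plus strand, chr2:69012983-69013074: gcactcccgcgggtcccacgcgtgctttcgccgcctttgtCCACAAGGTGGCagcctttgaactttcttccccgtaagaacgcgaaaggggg
MB, minus strand, chr22:35623423-35623514: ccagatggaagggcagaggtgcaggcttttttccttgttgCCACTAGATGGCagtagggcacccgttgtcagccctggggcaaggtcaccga
ARMC5, plus strand, chr16:31458054-31458121: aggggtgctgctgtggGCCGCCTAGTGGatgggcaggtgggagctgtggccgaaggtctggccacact
The first 4 stand at left anchors and read in the motif's own direction on the plus strand, so they face right, into the loop. The MB place stands at a right anchor on a minus-strand gene and faces left, again into the loop. The ARMC5 place is the exception: its capitals are the reverse complement of the motif at a left anchor, so it faces out of the loop.

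These promoters anchored loops of very different strength. The loop from CEBPB, which encodes a leucine zipper transcription factor, at chr20:50190001-50465000, spanned 270 kb and had 102 counts in APH, 91 in DMSO, 92 in HU and 106 in H2O. From STEAP1, a membrane metalloreductase gene, the 275 kb loop had 20 counts in APH, 30 in DMSO, 29 in HU and 29 in H2O. The 270 kb loop that ends at MB, the myoglobin gene, had 34 counts in APH, 32 in DMSO, 31 in HU and 23 in H2O. The 265 kb loop from MC5R, a melanocortin receptor gene, had 17 counts in APH, 17 in DMSO, 18 in HU and 15 in H2O. The 410 kb loop from ARMC5, whose motif faces outwards, had 13 counts in APH, 17 in DMSO, 16 in HU and 13 in H2O. The 295 kb loop from ANTXR1, an anthrax toxin receptor gene, was listed in APH with 16 counts and in HU with 13, and in neither vehicle library. An inward motif letter match thus occurred at strong and weak members alike.

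Members carried few counts. The APH library listed 2831 members among 27395 loops, DMSO 2321 among 17660, HU 2243 among 21448 and H2O 2864 among 22446. They held 60792 counts in APH, 48790 in DMSO, 46383 in HU and 59870 in H2O. The median was 17 counts per member in every library, against 20 over all listed loops, and the highest was 162 in APH, 154 in DMSO, 137 in HU and 134 in H2O. A pair needs at least 12 counts to be listed in these files, so most members stood close to the floor, and a pair that is not listed is not a pair with no contacts.

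Against the count that the caller expected, however, members were strong. The median ratio of observed to expected counts was 8.25 in APH, 8.64 in DMSO, 8.43 in HU and 8.51 in H2O for members, and 3.76 in APH, 3.98 in DMSO, 3.89 in HU and 3.65 in H2O for loops under 100 kb. Expected counts of members had a median of 2.16 in APH, 2.02 in DMSO, 2.05 in HU and 2.05 in H2O, against 5.95, 5.43, 5.62 and 6.16 in the same libraries for loops under 100 kb. A minimum of 12 counts at so low an expectation forces a high ratio, so the difference between the span classes is a description of what could be listed.

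The share of a library's loops that were members was lower in both drug libraries. In APH 10.3% of the listed loops were members (exact 95% interval 9.98 to 10.7), against 13.1% in DMSO (12.6 to 13.6), and in HU 10.5% were (10.1 to 10.9), against 12.8% in H2O (12.3 to 13.2). The difference was -2.81 percentage points for APH minus DMSO (-3.43 to -2.19) and -2.30 for HU minus H2O (-2.90 to -1.70), but -0.383 for the 2 vehicles, H2O minus DMSO. These intervals cover counting error only, and the APH list was the longest. Thinning each library at random to the lowest total over the loops listed in all 4, that of DMSO, and dropping loops left with under 12 counts gave -4.04 for APH minus DMSO and -2.24 for HU minus H2O.

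**Figure D1:**
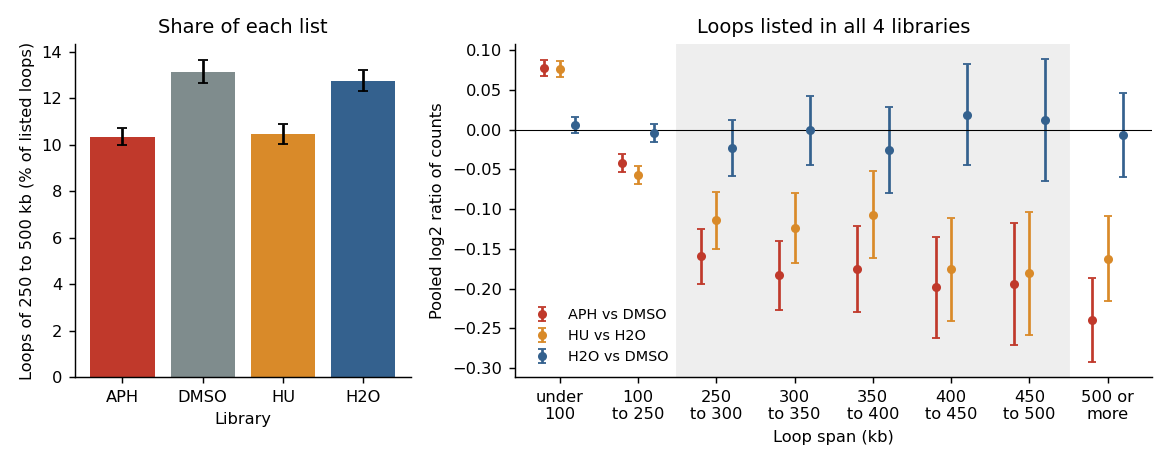
Share of listed loops that are members in each library (left, percent, bars with exact 95% binomial intervals) and pooled log2 ratio of counts by span bin (right, 5 bins of 50 kb, with 95% exact conditional intervals) for APH vs DMSO, HU vs H2O and H2O vs DMSO. The shares are 10.3% in APH and 10.5% in HU, below the 13.1% of DMSO and the 12.8% of H2O, and both drug ratios lie below 0 in all 5 bins.

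Members were shared between libraries more often than short loops were. All 4 libraries listed 1243 of the 4395 members (28.3%, 27.0 to 29.6), in 995 places, against 18.5% of the loops under 100 kb, 27.4% of those of 100 to 250 kb and 22.8% of all loops. Only 1 library listed 38.0% of the members (1670), and 50.8% of the loops under 100 kb. Listing went with the count: of the members with at least 24 counts in at least 1 library, 85.6% were listed in all 4, against 37.8% of such loops under 100 kb. Strong members were thus mostly found in every library.

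Loops of both vehicles alone and of both drugs alone were split differently by span. The drug libraries and neither vehicle listed 157 members (3.57%, 3.04 to 4.16) and 1495 loops under 100 kb (6.83%), against 5.69% of all loops. Both vehicle libraries and neither drug library listed 164 members (3.73%) and 329 loops under 100 kb (1.5%), against 2.03% of all loops. Among loops of 500 kb or more the drugs-only and vehicles-only shares were 3.56% and 4.68%. Among those of 100 to 250 kb they were 4.76% and 2.13%. The drugs-only members less often sat within a nest of shorter loops, and lay further from the values of all members than the vehicles-only ones. Of the vehicles-only members 21.3% (15.3 to 28.4) could be split at an inner anchor that had listed loops to both of their ends, against 7.64% (4.01 to 13) of the drugs-only members. A loop under 100 kb started at an anchor of 55.5% (47.5 to 63.2) of the vehicles-only members and of 33.1% (25.8 to 41.1) of the drugs-only members. The median number of short loops lying inside was 2.5 for the vehicles-only members and 0 for the drugs-only members. Over all 4395 members these 3 values were 19.0%, 45.5% and 2. Both sets were weak, with a median of 14 counts each.

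The 5 drugs-only members with most counts included a loop to the promoter of ZNF438, a zinc finger protein gene, at chr10:30780001-31035000, with 21 counts in APH and 27 in HU. At the tip of chromosome 3, a 335 kb loop to CHL1, a neural adhesion molecule gene, had 21 counts in APH and 25 in HU. The others ended on FBN2, a fibrillin gene (21 in APH, 21 in HU), joined DNMT3B, a de novo DNA methyltransferase gene, to BPIFB4 (18 in APH, 23 in HU), or spanned HEY2, a Notch target gene (20 in APH, 21 in HU). Most of these 5 had no shorter loop inside them, the exception being the DNMT3B loop.

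The 5 vehicles-only members with most counts were led by a 295 kb loop at chr14:22555001-22855000 that spans DAD1, MMP14, OXA1L and SLC7A7, with 31 counts in DMSO and 21 in H2O and 20 shorter loops inside it. BTG1, an antiproliferative gene of B cells, had its start at the left anchor of a loop of 21 counts in DMSO and 22 in H2O. The remaining ones ended on ABCA5, a lipid transporter gene (16 in DMSO, 29 in H2O), ended on EMID1 (25 in DMSO, 17 in H2O), or spanned CMYA5 and TENT2 (20 in DMSO, 22 in H2O). All of these counts were near the listing floor.

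Counts of the 1243 members listed in all 4 libraries were compared after dividing each library by its total over all 9529 loops listed in all 4, which came to 376948 counts in APH, 300320 in DMSO, 322048 in HU and 325634 in H2O. The members held 36117 of these counts in APH, 32495 in DMSO, 31671 in HU and 34995 in H2O. Ratios "with APH" below are of APH over DMSO, and ratios "with HU" of HU over H2O. The members' pooled log2 ratio was -0.18 with APH (95% exact conditional interval -0.20 to -0.15), -0.13 with HU (-0.15 to -0.11) and -0.01 for H2O vs DMSO (-0.03 to 0.01). These ratios are relative to a total that also holds the shorter loops, and loops under 100 kb had 0.08 with APH and 0.08 with HU. A lower scaled count can come from more counts at other loops, fewer cells holding a loop or a loop held less often per cell. In such bulk material these cannot be told apart.

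The shift was broad rather than carried by a few loops. Of the 1243 members, 850 (68.4%) had a log2 ratio below 0 with APH and 735 (59.1%) with HU, against 52.7% and 50.2% of all 9529 loops. For H2O vs DMSO it was 668 (53.7%), against 50.8%. The median member stood at -0.19, -0.12 and -0.03 in these 3 comparisons, where the median of all loops was -0.02, -0.01 and -0.01.

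Within the range of 250 to 500 kb the shift changed little with span. Taken in bins of 50 kb, members of 250 to 300 kb (474) had pooled log2 ratios of -0.16 with APH and -0.11 with HU, and those of the last bin, up to 500 kb (107), had -0.19 and -0.18. The difference of the longest bin from the shortest was -0.04 (-0.12 to 0.05) with APH and -0.07 (-0.15 to 0.02) with HU, both with intervals that include 0. Set against the neighbouring span classes, the members' log2 ratio minus that of loops of 100 to 250 kb was -0.13 (-0.16 to -0.11) with APH and -0.07 (-0.10 to -0.05) with HU, and minus that of loops of 500 kb or more it was 0.06 (0.01 to 0.12) with APH and 0.03 (-0.02 to 0.09) with HU. The same differences for H2O vs DMSO were -0.01 and -0.00, with intervals that include 0.

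At the lower border, the 60 loops of exactly 250 kb, just inside, had -0.16 with APH and -0.13 with HU, and the 56 loops of 245 kb, just outside, had -0.10 and -0.09. At the upper border, the 11 loops of 495 kb had -0.07 (-0.36 to 0.21) and 0.02 (-0.24 to 0.28). The 7 loops of 500 kb had -0.33 (-0.61 to -0.05) and -0.26 (-0.54 to 0.01), with intervals that overlap those at 495 kb. At 495 kb the vehicles themselves differed, with 0.30 (0.02 to 0.58) for H2O vs DMSO.

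The pooled shift of APH depended on how distance was handled. With each loop divided by its expected count, the members' median log2 ratio was taken minus that of all loops listed in all 4 libraries. This gave -0.06 with APH, -0.13 with HU and 0.07 for H2O vs DMSO. The APH value then was no larger than the difference between the vehicles. Scaling by the totals of all listed loops, which contain many pairs listed in 1 library alone, gave -0.55 with APH and -0.08 with HU.

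Across chromosomes the members' pooled log2 ratio with APH was below 0 on 23 of 23, between -0.25 on chromosome 10 and -0.01 on chromosome 21, and with HU it was below 0 on 21 of 23, between -0.25 on chromosome 14 and 0.06 on chromosome 16. For H2O vs DMSO it was below 0 on 12 of 23, between -0.29 on chromosome 19 and 0.11 on chromosome 4. Intervals lay wholly below 0 on 15 chromosomes with APH, on 12 with HU and on 2 for H2O vs DMSO.

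Chromosomes also differed in how many long loops they held. On chromosome 19, which has 1451 protein-coding genes in the RefSeq table, 49 of 2103 loops were members (2.33%), and on chromosome 17, with 1169 genes, 109 of 2439 were (4.47%). The highest shares were on chromosome 4, with 770 genes, where 220 of 1486 loops were members (14.8%), and on chromosome 13, with 338 genes, where 110 of 757 were (14.5%). Chromosomes 19 and 17 are known as gene-dense, and chromosomes 4 and 13 as gene-poor.

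**Figure D2:**
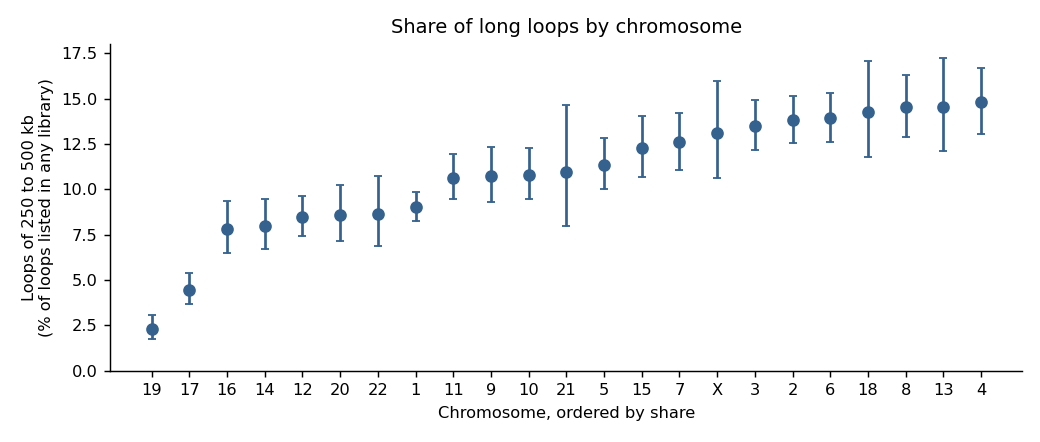
Share of loops listed in any library that are members on each chromosome (percent, with exact 95% intervals), with chromosomes ordered by share. Chromosome 19 has the lowest share at 2.33% and chromosome 4 the highest at 14.8%.

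A member was called when its scaled ratio was at least 1.5-fold and its own 95% interval excluded 1. With APH 9 members were higher (0.724%) and 59 lower (4.75%), where 2.28% of all 9529 loops were higher and 2.42% lower. With HU 8 were higher (0.644%) and 56 lower (4.51%), against 3.41% higher and 2.96% lower over all loops. For H2O vs DMSO 15 were higher (1.21%) and 10 lower (0.805%), against 1.13% and 1.08% over all loops. Scaling by the members' own total centres the members at 0 by construction, and then 23 were higher and 23 lower with APH and 26 higher and 27 lower with HU. With totals of all listed loops they were 0 higher and 279 lower with APH.

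Set against the other vehicle, APH over H2O gave 7 members higher and 69 lower, where 2.84% and 3.02% of all loops were called, and HU over DMSO gave 13 higher and 61 lower, where 3.21% and 2.64% were.

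The largest differences of single members were downward. The lowest ratio with APH was that of a 250 kb loop at chr2:85825001-86080000 which ends on POLR1A, the gene of the largest subunit of RNA polymerase I, and spans ST3GAL5, a ganglioside synthase gene. It had 15 counts in APH, 41 in DMSO, 27 in HU and 36 in H2O, a log2 ratio of -1.78 (-2.74 to -0.89) with APH, and the APH library stood below all others. With counts of the adjacent bin pairs added, that ratio was -0.29, much nearer 0 and above the upper end of its interval. Here and below, such sums hold listed pairs only. A neighbouring pair that a library did not list added no counts there, so these ratios also reflect which pairs were listed.

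A 320 kb loop from TFDP2, which encodes a dimerization partner of E2F factors, had 12 counts in APH, 28 in DMSO, 18 in HU and 24 in H2O, a log2 ratio of -1.55 (-2.66 to -0.53) with APH. The 375 kb loop between GPA33 and CD247, the gene of the zeta chain of the T cell receptor complex, spans POU2F1 and had 17 counts in APH, 34 in DMSO, 20 in HU and 29 in H2O, with -1.33 (-2.26 to -0.45) and with -0.56 once adjacent bin pairs were added. A 320 kb loop across CD2, CD101 and PTGFRN, genes of surface proteins of the immunoglobulin superfamily, had 16 in APH, 31 in DMSO, 22 in HU and 36 in H2O, with -1.28 (-2.25 to -0.37) and with -0.25 once adjacent bin pairs were added. In all 3 the APH library was lowest and HU lay between APH and both vehicles.

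Within RAD51B, a gene of homologous recombination, a 305 kb loop had 14 counts in APH, 27 in DMSO, 26 in HU and 22 in H2O, a log2 ratio of -1.28 (-2.32 to -0.29) with APH and 0.26 (-0.62 to 1.15) with HU. The 405 kb loop from SUCLG2, a subunit gene of succinyl-CoA ligase, had 12 in APH, 23 in DMSO, 23 in HU and 15 in H2O, a log2 ratio of -1.27 (-2.41 to -0.20) with APH and 0.63 (-0.37 to 1.68) with HU. The SUCLG2 ratio with APH was -0.39 with adjacent bin pairs added. Here the H2O library also stood low, and against H2O the APH ratio was -0.53 (-1.76 to 0.66). Of the 8 lowest members with APH, 6 also had an interval below 0 against H2O, the SUCLG2 and RAD51B loops being those that did not.

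With HU the lowest member was the 270 kb loop to SORL1, a sorting receptor gene, at chr11:121320001-121595000. It had 41 counts in APH, 43 in DMSO, 16 in HU and 43 in H2O, a log2 ratio of -1.41 (-2.34 to -0.55) with HU, and HU alone was low. The SORL1 ratio was -0.60 with adjacent bin pairs added. A 480 kb loop across CDC42EP3, a Cdc42 effector gene, had 54 in APH, 48 in DMSO, 22 in HU and 56 in H2O, with -1.33 (-2.11 to -0.60), and -0.57 with adjacent bin pairs added. The 320 kb loop from ADIPOQ across ST6GAL1, the sialyltransferase that makes ligands of the B cell lectin CD22, had 28 in APH, 31 in DMSO, 12 in HU and 29 in H2O, with -1.26 (-2.36 to -0.24), but -0.20 with adjacent bin pairs added. These 3 were low in HU alone among the 4 libraries.

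Further low members with HU were the loop between LAMP3 and MCF2L2 across B3GNT5, with 22 counts in APH, 24 in DMSO, 14 in HU and 35 in H2O (log2 ratio -1.31), and the loop across GTF2F2, a subunit gene of TFIIF, with 26 in APH, 25 in DMSO, 17 in HU and 40 in H2O (-1.22). FYN, a Src family kinase gene, anchored a loop with 33 in APH, 25 in DMSO, 20 in HU and 47 in H2O (-1.22), and HERC1, a giant ubiquitin ligase gene, one across DAPK2 with 17 in APH, 19 in DMSO, 13 in HU and 30 in H2O (-1.19). In these 4 the H2O library was the highest, and for FYN H2O also exceeded DMSO, at 0.79 (0.06 to 1.56). Of the 8 lowest members with HU, 4 kept an interval below 0 when set against DMSO.

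Upward differences were fewer, and fewer of them held against the other vehicle. The highest member, a 265 kb loop between MARCHF10 and TANC2, had 31 counts in APH, 12 in DMSO, 17 in HU and 14 in H2O, with 1.04 (0.04 to 2.14). A 460 kb loop within PDE1C, a phosphodiesterase gene, had 36 in APH, 14 in DMSO, 45 in HU and 31 in H2O, a log2 ratio of 1.03 (0.11 to 2.04) with APH but 1.03 (0.08 to 2.05) for H2O vs DMSO as well and 0.00 for APH vs H2O. It was the DMSO library that stood low there.

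The others with APH lay over the MS4A5, MS4A7 and MS4A14 genes (34 counts in APH, 14 in DMSO, 22 in HU and 21 in H2O; log2 ratio 0.95), from AGAP1 (45, 19, 27 and 29 in the same libraries; 0.92), from COPG2 across the imprinted gene MEST (43, 19, 26 and 30; 0.85), across the Hedgehog effector gene GLI2 (49, 22, 27 and 25; 0.83), across BRIP1, a helicase gene of the Fanconi anaemia pathway, and INTS2 (44, 20, 26 and 18; 0.81), and from ANTXR1 (60, 28, 52 and 47; 0.77). In each of these 6 APH held the most unscaled counts. After scaling to the DMSO total, the ANTXR1 loop was slightly higher in HU (48.5) than in APH (47.8). The AGAP1 ratio was 0.21 with adjacent bin pairs added. Against H2O, the GLI2 loop at 0.76 (0.04 to 1.52) and the BRIP1 loop at 1.08 (0.26 to 1.96) were the 2 of the 8 highest whose interval stayed above 0.

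With HU the highest member was a 355 kb loop within BCAS3, with 25 counts in APH, 18 in DMSO, 28 in HU and 12 in H2O and 1.24 (0.22 to 2.35) with HU. The others lay across ADGRL4, an adhesion receptor gene of endothelium (34 counts in APH, 24 in DMSO, 28 in HU and 13 in H2O; log2 ratio 1.12), across SPO11, the gene of the enzyme that makes meiotic DNA breaks (16, 15, 25 and 12 in the same libraries; 1.07), from CEP70 across PIK3CB (27, 22, 26 and 13; 1.02), across CACUL1 and PRLHR (23, 15, 34 and 18; 0.93), across the homeobox gene MSX2 (29, 26, 43 and 26; 0.74), and in 2 stretches with no protein-coding gene named, at chr1:157190001-157495000 (15, 14, 28 and 13; 1.12) and chr20:50985001-51310000 (44, 35, 54 and 35; 0.64). Of these 8, the loops of BCAS3, ADGRL4 and CEP70 had H2O furthest below DMSO, at -0.70, -1.0 and -0.88 with intervals that include 0. With adjacent bin pairs added, the ratios were larger for ADGRL4 (1.77) and the chromosome 20 stretch (1.35), and smaller for the chromosome 1 stretch (0.43), CEP70 (0.63) and MSX2 (0.48). Set against DMSO only the CACUL1 loop kept an interval above 0, at 1.08 (0.16 to 2.06).

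Both drug comparisons had intervals below 0 for 9 members (0.724%), where 0.357% of all 9529 loops did, and intervals above 0 for 0 members, where 0.598% of all loops did. Log2 ratios were below 0 in both for 524 members (42.2%), against 30.0% of all loops, and above 0 in both for 182 (14.6%), against 27.2%. The comparisons share no library. Over the 1243 members the 2 log2 ratios had Pearson's r of 0.154, against 0.226 over all 9529 loops, as a description only, since adjacent members share a place and all share the scaling.

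**Figure D3:**
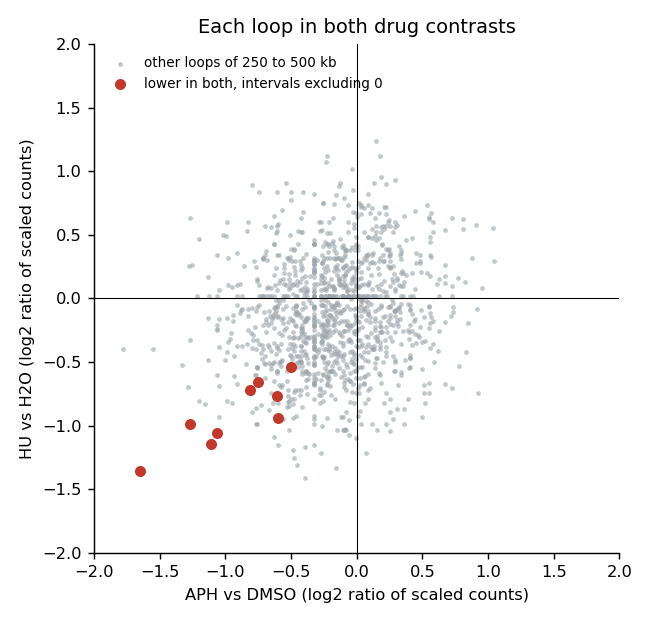
Log2 ratio of HU vs H2O (vertical) against APH vs DMSO (horizontal) for the 1243 members listed in all 4 libraries, with the 9 members whose intervals lie below 0 in both marked. More points lie in the corner where both ratios are below 0 (524) than in the one where both are above 0 (182).

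The clearest of the 9 was the 415 kb loop from LRRC28 to MEF2A, a MADS-box transcription factor gene, at chr15:99285001-99705000. It had 22 counts in APH, 55 in DMSO, 17 in HU and 44 in H2O. Both drug libraries stood at less than 1 count for every 2 in their vehicle, a log2 ratio of -1.65 (-2.43 to -0.91) with APH, -1.36 (-2.26 to -0.52) with HU and -0.44 (-1.04 to 0.16) for H2O vs DMSO. With adjacent bin pairs added the drug ratios were -1.25 and -1.13.

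The 250 kb loop from OSBPL3, an oxysterol-binding protein gene, had 13 counts in APH, 25 in DMSO, 14 in HU and 28 in H2O (log2 ratio -1.27 with APH, -0.98 with HU). The 465 kb loop from GBE1, the glycogen branching enzyme gene, had 14 in APH, 24 in DMSO, 13 in HU and 29 in H2O (-1.11 and -1.14). The 410 kb loop to TTC23L, which spans RAI14, had 18 in APH, 30 in DMSO, 18 in HU and 38 in H2O (-1.06 and -1.06). With adjacent bin pairs added the OSBPL3 ratios were -1.95 with APH and -1.53 with HU. In these 3 the unscaled counts of the drug libraries were nearly equal to each other and below both vehicles.

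The next had more counts and smaller ratios. A 300 kb loop to YEATS2, the gene of a histone acylation reader, spans KLHL6, a gene of B cell receptor signalling in germinal centres, and had 25 counts in APH, 35 in DMSO, 27 in HU and 45 in H2O (-0.81 and -0.72). With adjacent bin pairs added the APH ratio of this loop was -0.14. The 315 kb loop from CTTNBP2NL to RHOC and PPM1J, across MOV10, CAPZA1 and WNT2B, had 49 in APH, 59 in DMSO, 31 in HU and 60 in H2O (-0.60 and -0.94). HU stood lowest here. Its ratios over adjacent bin pairs were -0.28 with APH and -1.44 with HU.

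A 475 kb loop across MYLIP, the gene of the ubiquitin ligase of the LDL receptor, had 50 counts in APH, 67 in DMSO, 42 in HU and 67 in H2O (-0.75 and -0.66). The 305 kb loop across CAB39L, RCBTB1 and SETDB2 had 56 in APH, 68 in DMSO, 43 in HU and 74 in H2O (-0.61 and -0.77). Each had both drug libraries below both vehicles. The MYLIP, SETDB2 and MEF2A loops were the 3 of the 9 that kept both intervals below 0 with the vehicles exchanged.

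The last of the 9, at chr20:50185001-50465000, starts on CEBPB-AS1, spans CEBPB and had 137 counts in APH, 154 in DMSO, 91 in HU and 134 in H2O. Its ratios were -0.50 (-0.84 to -0.16) with APH, -0.54 (-0.94 to -0.15) with HU and -0.32 (-0.66 to 0.03) for H2O vs DMSO, and APH vs H2O gave -0.18 (-0.53 to 0.18). The 2 members anchored on CEBPB itself, which include the loop 1 bin to the right with the motif printed above, held 117 counts in APH, 105 in DMSO, 106 in HU and 122 in H2O, with -0.17 (-0.56 to 0.22) and -0.19 (-0.58 to 0.20). Summed over adjacent bin pairs, the CEBPB-AS1 loop had -0.38 with APH and -0.39 with HU.

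**Figure D4:**
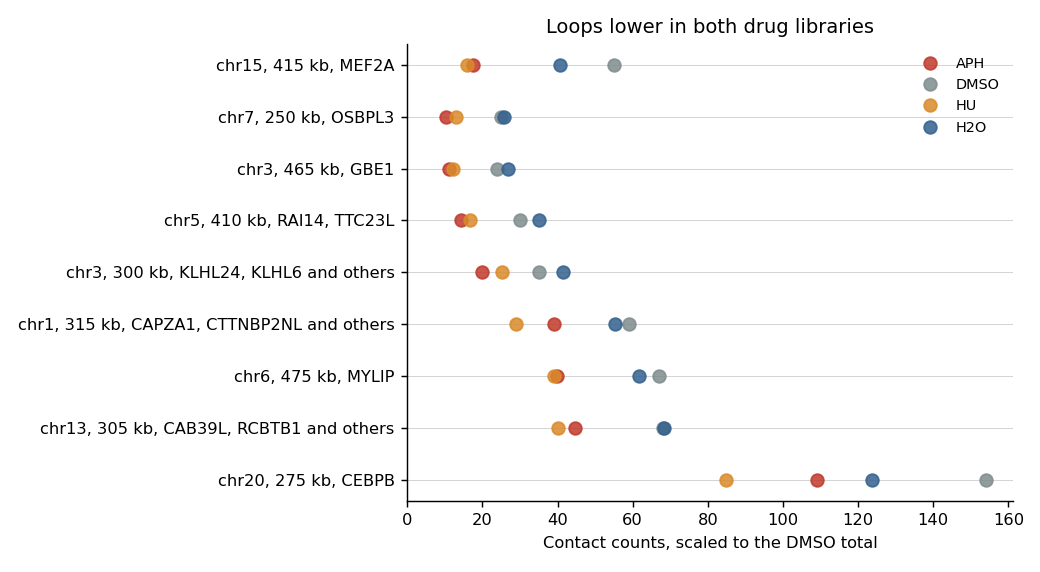
Scaled counts of the 9 members whose intervals lie below 0 in both drug comparisons, 1 point per library (APH, DMSO, HU, H2O). The LRRC28 to MEF2A loop has the lowest ratio of APH to DMSO and of HU to H2O among them, with unscaled counts of 22 in APH and 17 in HU, against 55 in DMSO and 44 in H2O.

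Of the 10 strongest members, with at most 1 per shared anchor, 4 had an interval below 0 in a drug comparison and 1 had one above 0. The 25% of members with most summed counts (307) had pooled log2 ratios of -0.17 with APH, with 70.4% of them below 0, and -0.15 with HU, with 66.8% below 0. The first of the 10 was a 305 kb loop to EEPD1, a nuclease-family gene, at chr7:35985001-36295000, with 162 counts in APH, 121 in DMSO, 123 in HU and 114 in H2O, and log2 ratios of 0.09 (-0.26 to 0.45) with APH and 0.13 (-0.25 to 0.51) with HU. The 385 kb loop across CPXM2 and GPR26 had 145 in APH, 126 in DMSO, 137 in HU and 111 in H2O, and the 345 kb loop across ADAMTS18, a metalloprotease gene, had 144, 107, 128 and 107 in the same libraries. None of these 3 differed in a drug comparison beyond its interval.

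The CEBPB-AS1 loop described above was also among the 10 and had both drug intervals below 0. Among the others, the 280 kb loop across PELI1, a ubiquitin ligase gene of Toll-like receptor signalling, had 127 counts in APH, 121 in DMSO, 84 in HU and 117 in H2O, and its HU vs H2O ratio was -0.46 (-0.88 to -0.05). The 355 kb loop across NEDD9, an adhesion scaffold gene, had 89 in APH, 101 in DMSO, 81 in HU and 105 in H2O, a log2 ratio of -0.51 (-0.94 to -0.08) with APH. VAV3, a guanine nucleotide exchange factor gene of B cell receptor signalling, anchored a loop of 92 in APH, 91 in DMSO, 76 in HU and 105 in H2O, a log2 ratio of -0.45 (-0.90 to -0.01) with HU. The loop at chr2:48110001-48425000 had 116 in APH, 96 in DMSO, 105 in HU and 123 in H2O, and the loop from TMEM17 to EHBP1, an endocytic adaptor gene, had 87, 72, 83 and 105 in the same libraries, both with drug intervals that include 0. Only the 350 kb loop between TMCO5A and SPRED1, an inhibitor gene of Ras signalling, was higher beyond its interval, with 116 in APH, 84 in DMSO, 117 in HU and 84 in H2O and 0.49 (0.08 to 0.92) with HU. After scaling, the PELI1 and VAV3 loops were lowest in HU and the NEDD9 loop was lowest in APH.

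How a long loop was embedded among other loops went with its ratio. Of the members listed in all 4 libraries, 349 could be split at an inner anchor with listed loops to both ends, and these had pooled log2 ratios of -0.24 with APH and -0.21 with HU. The other 894 had -0.14 and -0.09. The difference was -0.10 (-0.14 to -0.05) with APH, -0.12 (-0.17 to -0.08) with HU and -0.03 (-0.08 to 0.02) for H2O vs DMSO.

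Members with short loops at their anchors were also lower than those without, though with HU 1 such anchor or both made little difference. Members with a loop under 100 kb at both anchors (122) had -0.29 with APH and -0.19 with HU, those with one at 1 anchor (463) had -0.21 and -0.19, and those with none (658) had -0.13 and -0.07. Any short loop against none made a difference of -0.09 (-0.14 to -0.05) with APH, -0.12 (-0.17 to -0.08) with HU and -0.01 (-0.06 to 0.03) for H2O vs DMSO.

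At anchors where a long and a short loop were both listed in all 4 libraries, the lengths could be compared at one and the same site. The 192 members with such an anchor had pooled log2 ratios of -0.25 with APH and -0.18 with HU, and the 215 short loops at those anchors had 0.16 (0.12 to 0.20) and 0.12 (0.08 to 0.16). The difference, members minus short loops, was -0.41 (-0.48 to -0.34) with APH, -0.30 (-0.37 to -0.23) with HU and -0.05 (-0.12 to 0.02) for H2O vs DMSO. Of 161 such anchors, the long loops stood below the short loops at 125 (77.6%) with APH, at 118 (73.3%) with HU and at 93 (57.8%) for H2O vs DMSO.

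**Figure D5:**
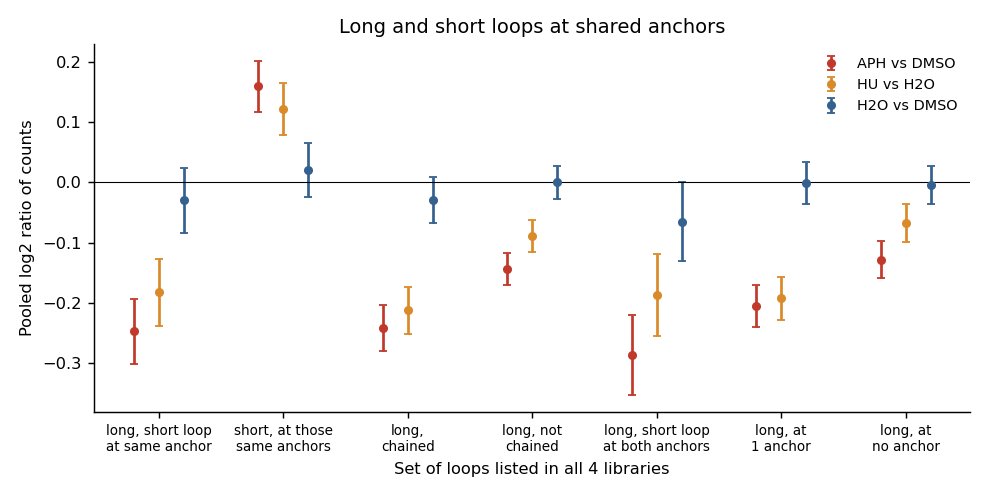
Pooled log2 ratio, with 95% exact conditional intervals, of long loops and of short loops at the anchors they share, for APH vs DMSO, HU vs H2O and H2O vs DMSO. The long loops lie at -0.25 with APH and -0.18 with HU, and the short loops at those same anchors lie at 0.16 and 0.12.

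The short loops at anchors of members were also higher than other short loops, by 0.09 (0.04 to 0.13) with APH and 0.05 (0.00 to 0.09) with HU. Weak and strong members did not differ in one direction: the 25% with fewest counts minus the 25% with most gave -0.06 (-0.12 to 0.01) with APH and 0.09 (0.03 to 0.16) with HU.

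Most anchors served 1 member. Of 5912 anchor bins, 4155 (70.3%) had a single member, 110 had at least 5 and the most was 10. Anchors with 3 or more members sent them almost all to one side: 628 of 668 such anchors did (94.0%, 91.9 to 95.7), against 3691 of 4803 (76.8%) for loops under 100 kb at anchors with 3 or more of those. By the same rule the share was 85.72% for loops of 100 to 250 kb and 98.02% for loops of 500 kb or more. It thus rose with span over all the classes and was not particular to members. Loops from one anchor to adjacent bins were counted separately here.

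The anchor with most members, at chr6:149430001-149435000, lies on no annotated gene and sent all 10 leftwards, over 320 to 405 kb. Its 3 members listed in all 4 libraries held 137 counts in APH, 147 in DMSO, 105 in HU and 129 in H2O, a log2 ratio of -0.43 (-0.78 to -0.08) with APH. The anchor at chr6:15690001-15695000, the left end of the MYLIP loop, sent all 9 rightwards over 435 to 495 kb, with 226 counts in APH, 223 in DMSO, 188 in HU and 227 in H2O and -0.31 (-0.58 to -0.04) with APH. Both had the HU library lowest.

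The anchor on TMCO5A sent 8 members rightwards and went the other way, with 218 counts in APH, 150 in DMSO, 179 in HU and 157 in H2O and 0.21 (-0.10 to 0.52) with APH, an interval that includes 0. One on LOC105373734 on chromosome 2 had 90 in APH, 105 in DMSO, 93 in HU and 109 in H2O, with -0.55 (-0.97 to -0.13). The anchor over the start of MYL12A, a myosin light chain gene, was the only one of the 8 busiest with a gene start in it and sent 8 members leftwards among 18 loops of any span. Of the remaining 3, on chromosomes 1 and 3, the one at chr1:8310001-8315000 had 101 in APH, 73 in DMSO, 59 in HU and 95 in H2O, a log2 ratio of -0.67 (-1.17 to -0.19) with HU, and the one at chr3:102225001-102230000 was the only one of the 8 with members to both sides, 5 leftwards and 3 rightwards.

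Anchors of long loops lay on genes less often than those of short loops. Both anchors lay on protein-coding genes for 27.2% of the members and for 49.1% of the loops under 100 kb, and neither did for 25% of the members and 18.5% of the loops under 100 kb. Both anchors lay in the same gene for 5.12% of the members and 28.8% of the loops under 100 kb. No gene start lay in either anchor for 85.6% of the members and 73.0% of the loops under 100 kb. The median member spanned 2 gene starts, the most was 24, and 23.1% spanned none.

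Members away from genes were less low with HU, while with APH the interval of that difference includes 0. Members with no anchor on a gene (331) had pooled log2 ratios of -0.16 with APH and -0.07 with HU, and the difference from members with an anchor on a gene was 0.02 (-0.03 to 0.07) with APH and 0.08 (0.03 to 0.12) with HU, against -0.05 (-0.10 to -0.00) for H2O vs DMSO. The 61 members with both anchors in 1 gene had -0.20 and 0.02, and differed from other members by -0.02 (-0.13 to 0.08) with APH and by 0.15 (0.05 to 0.26) with HU.

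Of 19974 protein-coding genes, 9473 (47.4%) had an anchor of any loop on the gene body and 2113 (10.6%) an anchor of a member. Loops are no measure of expression, so the B cell label could be checked only by which genes carry them: 7 of 8 B cell markers did, CD79B being the exception, but so did 4 of 6 T cell and 5 of 6 myeloid and erythroid markers. Of these markers, members touched PAX5, EBF1 and CD247.

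Among 25 genes of B cell identity, 4 carried members (16.0%): EBF1 with 4, PAX5 with 3, and BACH2 and BCL6 with 1 each, all genes of transcription factors of the B lineage. The EBF1 members listed in all 4 libraries had 88 counts in APH, 78 in DMSO, 62 in HU and 84 in H2O, a log2 ratio of -0.15 (-0.61 to 0.31) with APH and -0.42 (-0.92 to 0.07) with HU. Of 20 genes that respond to NF-kB and Epstein-Barr virus latency, 4 carried members (20.0%): CFLAR with 3, BCL2 with 2, and MYB and TNFAIP8 with 1 each. CFLAR, an inhibitor of death receptor signalling, had 21 counts in APH, 29 in DMSO, 17 in HU and 32 in H2O in 1 member, with -0.79 (-1.68 to 0.07) and -0.90 (-1.84 to -0.01). Against a median of -0.20 with APH and -0.14 with HU over the 827 genes that had members in all 4 libraries, CFLAR was lower in both, though its APH interval includes 0.

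Common fragile sites are late-replicating regions in very long genes where chromosomes break under slowed replication. Of 20 fragile site genes, 11 carried members (55.0%), a share for which gene length was not taken into account. DMD, the dystrophin gene, led with 4 members, of which 2 listed in all libraries had 115 counts in APH, 83 in DMSO, 100 in HU and 89 in H2O, with 0.14 (-0.28 to 0.57) and 0.18 (-0.24 to 0.61). FHIT had 31 in APH, 31 in DMSO, 32 in HU and 27 in H2O, with -0.33 (-1.09 to 0.44) and 0.26 (-0.52 to 1.06). Neither gene's members differed beyond their intervals.

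Of 15 genes of cohesin and its regulators, 6 carried members: SMC3, a core subunit gene, with 5, STAG1 with 4, PDS5A and PDS5B with 2 each, and the loader gene NIPBL and the deacetylase gene HDAC8 with 1 each. STAG1 had 81 counts in APH, 76 in DMSO, 81 in HU and 68 in H2O, a log2 ratio of -0.24 (-0.71 to 0.24) with APH and 0.27 (-0.22 to 0.76) with HU. SMC3 had 24 in APH, 12 in DMSO, 13 in HU and 21 in H2O, with 0.67 (-0.38 to 1.81) and -0.68 (-1.80 to 0.39). PDS5A, the lowest of the list with APH, had 25 in APH, 28 in DMSO, 17 in HU and 14 in H2O. Its ratios were -0.49 (-1.33 to 0.34) with APH and 0.30 (-0.81 to 1.43) with HU. All of these intervals include 0. For H2O vs DMSO, however, PDS5A had -1.12 (-2.16 to -0.14), a difference between the vehicles.

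Of 18 p53 and DNA damage targets only ZMAT3, a p53-induced RNA-binding protein gene, carried members, and with HU it was lower: 51 counts in APH, 49 in DMSO, 34 in HU and 61 in H2O, a log2 ratio of -0.27 (-0.87 to 0.33) with APH and -0.83 (-1.48 to -0.20) with HU. HOXB3, among 4 of 15 genes of developmental clusters with members, had 5 members and 45 counts in APH, 47 in DMSO, 27 in HU and 55 in H2O in the 2 listed everywhere, with -0.39 (-1.01 to 0.23) and -1.01 (-1.73 to -0.32). HOXD13, with 40 in APH, 40 in DMSO, 34 in HU and 28 in H2O, had -0.33 (-1.0 to 0.34) and 0.30 (-0.47 to 1.07). HOXB5, a neighbour of HOXB3 that can share its anchors, had 17 in APH, 23 in DMSO, 12 in HU and 24 in H2O. CD247 of the T cell list (1 of 16 genes) and CEBPB of the myeloid and erythroid list (1 of 12) were the only genes of those lists with members.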

How the data were processed

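SMC1 HiChIP of GM12878 cells was analysed in 4 libraries, 1 each for APH, DMSO, HU and H2O, grouped by the treatment in the labels. Per the submitters' processing notes, bcl2fastq 2.17 and MACS3 3.0.1 were used and the build was hg38; for the aligner and loop caller, nothing is stated in the sources used here. What the authors deposited is a headerless loop list for each library, and columns were identified by their values. Deposited counts per bin pair (5 kb bins) are raw and whole, 12 being the lowest. A deposited signal that is not whole was taken as the caller's expected count, since the observed count is over 2 times as high in every row. The deposited adjusted p-value (false discovery rate) is below 0.01 throughout. Lists hold called loops only, so total depth is unknown.

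For ratios, each library was divided by its total over the 9529 loops listed in all 4, and no pseudocount was added. The 95% intervals are exact conditional binomial (ratios and differences of log2 ratios) or exact Clopper-Pearson (shares), and cover counting error only, which may understate it where reads repeat molecules. With 1 library a group, no p-value was given. A member was called at 1.5-fold or more with an interval excluding 1. The calculation was tested on simulated data. Python 3.11.15, numpy 2.4.6, pandas 2.3.3, scipy 1.17.1 and matplotlib 3.10.9 were used. Gene bodies, starts and promoter windows came from RefSeq tables of GRCh38.p14, the build of hg38 coordinates, and all 141 genes of the 8 lists were found by symbol.

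Named members were the 10 with most counts (at most 1 per shared anchor), the 8 highest and 8 lowest called ratios of each drug comparison whose size exceeded that of H2O vs DMSO, all members with both drug intervals on the same side, the 5 with most counts listed in both drugs or both vehicles only, and the 8 busiest anchors. In each gene list, the gene with most members and those with the highest and lowest ratio were named. The other members and genes given in the text were chosen after their values were seen. The span rule, the lists and the tests were chosen with earlier results of these data known. Alternatives covered scaling, vehicle, stricter counts and fold, thinning, adjacent bins, division by the expected count and gene ends.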

Additional observations from a re-analysis of the deposited data

How the results depend on the processing

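No paired analysis was possible because each group has 1 library. The direction was the same under every alternative for which a drug comparison of the pooled ratio or of the share was recomputed, while sizes moved. The share of members, at -2.81 percentage points for APH minus DMSO, was -1.93 with loops of at least 24 counts and -4.04 after thinning; at -2.30 for HU minus H2O, it was -1.54 with at least 24 counts. The pooled log2 ratio of APH vs DMSO (-0.18) was -0.55 with totals of all listed loops. It was -0.13 relative to loops of 100 to 250 kb and -0.24 with adjacent bins summed. Sums over adjacent bins hold listed pairs only, so they also reflect which pairs each library listed. After division by the expected count, the members' median minus that of all loops was -0.058. The pooled log2 ratio of HU vs H2O (-0.13) was -0.080, -0.072 and -0.19 under the first 3 of these settings. That of H2O vs DMSO (-0.01) was -0.25 with totals of all listed loops and 0.069 after division by the expected count. Calls for APH vs DMSO (9 higher, 59 lower) were 0 and 279 with totals of all listed loops, 23 and 23 with the members' own total (which centres them at 0), and 2 and 30 at 2-fold. For HU vs H2O (8 higher, 56 lower) the higher calls were 14 with totals of all listed loops and 13 against DMSO, calls were 26 and 27 with the members' own total, and 5 and 24 at 2-fold. For H2O vs DMSO (15 higher, 10 lower) they were 1 and 56 with totals of all listed loops and 4 and 4 at 2-fold. Members listed in all 4 libraries were 28.3%, 33.7% with a tolerance of 1 bin and 85.6% of those with at least 24 counts in a library. Members with an anchor on a gene body were 75% of all, and 45.5% had an anchor within 5 kb of a gene end. The 47 ratios of named members moved beyond their intervals in 3 cases with the other vehicle, 5 with adjacent bins summed and 1 with totals of all listed loops. The cause of these shifts was not tested.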
